A study of Mus musculus with 5 samples.

Results

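The 7 mouse genes that encode the INK4 and CIP inhibitors of cyclin-dependent kinases were examined for RING1B peaks. The INK4 genes are Cdkn2a, Cdkn2b, Cdkn2c and Cdkn2d, and the CIP genes are Cdkn1a, Cdkn1b and Cdkn1c. All 7 were found in the GENCODE vM1 annotation of NCBIM37, the assembly behind mm9, among 37252 genes (Y chromosome and mitochondrial genes left out). They were chosen by name, as cell-cycle inhibitors linked to Polycomb in fibroblasts. A gene was counted as having a peak when a peak shared at least 1 base with its gene body or with the 5000 bases on either side of its start, the 5′ end of the gene. None of the 7 genes had a RING1B peak in the control list, the EZHIP list or the H3.3 K27M list. The last is called the K27M list here. Of all 37252 genes, 3.16% had a peak in the control, 1.12% in the EZHIP and 1.09% in the K27M list. With shares this low, finding none among 7 genes does not set the inhibitors apart from other genes.

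RING1B was profiled by ChIP-Seq, the sequencing of immunoprecipitated chromatin, in mouse embryonic fibroblasts (MEFs) isolated from an embryo with loxP sites in the EED gene, which encodes a core subunit of PRC2. The control group was the parental cells, which carry the floxed alleles, and the other groups analysed were the same cells transduced with lentivirus to express human EZHIP or H3.3 K27M, so all 3 groups carry floxed EED. Per the methods of the study, the lentiviral vector carries an EF1a promoter and transduced cells were selected with puromycin. Each group is 1 library, and the H3.3 K27R library and the EED deletion line, which is a single clone, were not analysed here. With 1 library per group there is no spread between replicates, so no test was made, and what differs between lists may differ between libraries only.

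PRC1 contains RING1B, which places ubiquitin on histone H2A, and it is recruited in part through H3K27me3, the mark that PRC2 makes. EZHIP and H3.3 K27M both inhibit PRC2. The Ink4a/Arf locus is a classic Polycomb target in fibroblasts. Loss of the Polycomb subunit BMI1 raises its products there, and cells then stop dividing. INK4 proteins bind the cyclin D kinases CDK4 and CDK6 and keep the retinoblastoma protein active, whereas CIP proteins bind a wider range of cyclin and kinase complexes.

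Each deposited list gives the positions of peaks on mm9 and no read count, score or signal, so depth is unknown. A place without reads and a place with reads under the threshold of the peak caller look the same in such a list. The lists held 821 control, 311 EZHIP and 286 K27M peaks, of which 201, 74 and 71 lay on the 5 chromosomes that hold the inhibitor genes. The narrowest peak was 1199 bases in the control list and 399 bases in both other lists. Peaks under 1000 bases, the minimum size stated for the peak calling, numbered 0 in the control, 109 in the EZHIP and 59 in the K27M list, and of these 13 EZHIP and 7 K27M peaks were 999 bases wide. With only peaks of at least 1000 bases, 0.811% of all genes had an EZHIP and 0.923% a K27M peak. The inhibitors had 0 in each list, a count that dropping peaks cannot raise. Peak lists do not measure expression. Among 5 fibroblast genes, Col1a1, Col1a2, Twist1, Twist2 and Prrx1, 0 had a peak in any list. Of 4 annotated genes of other lineages, Olig2 had a peak in all 3 lists, Neurod1 in the control list alone, and Gata1 and Myod1 in none. Of all genes, 3.16% had a control peak, 1.12% an EZHIP and 1.09% a K27M peak, so a count of 0 of 5 does not check the labelled cell type.

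The INK4 genes lie at 3 places. Cdkn2a (ENSMUSG00000044303.5) spans chr4:88920377-88940557 on the minus strand. It encodes p16INK4a and, from a separate first exon and in another reading frame, p19ARF, which restrains MDM2 and so stabilises p53. Cdkn2b (ENSMUSG00000073802.4), which encodes p15INK4b, lies next to it at chr4:88952198-88956941. The starts of Cdkn2a and Cdkn2b are 16384 bases apart. Cdkn2c (ENSMUSG00000028551.8), for p18INK4c, is at chr4:109333481-109339794, and Cdkn2d (ENSMUSG00000066860.6), for p19INK4d, is at chr9:21092907-21095653. All 4 INK4 genes are on the minus strand.

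The CIP genes lie on 3 further chromosomes. Cdkn1a (ENSMUSG00000023067.7) spans chr17:29227924-29237667 on the plus strand and encodes p21CIP1, a main target of p53. Cdkn1b (ENSMUSG00000003031.8), for p27KIP1, is at chr6:134870419-134875531 on the plus strand. Cdkn1c (ENSMUSG00000037664.6), for p57KIP2, is at chr7:150644255-150646955 on the minus strand. It is imprinted and expressed from the maternal allele.

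The start sequences of Cdkn2a and Cdkn1a are shown first, because PRC1 and PRC2 are found mostly at CpG-rich sequence and both genes have starts with and without it. Each line gives the 250 bases upstream of an annotated transcript start, 5′ to 3′ on the strand of the gene, read from NCBIM37, with every CpG dinucleotide (letters CG) in capitals. The windows are chr4:88940558-88940807 for the first start of Cdkn2a (that of p19ARF), chr4:88928097-88928346 for its p16INK4a start, chr17:29227674-29227923 for the first start of Cdkn1a and chr17:29230467-29230716 for its next start. The p16INK4a window lies in an intron of the p19ARF transcript, and the last window lies in an intron of the longest Cdkn1a transcript.
Cdkn2a, p19ARF start: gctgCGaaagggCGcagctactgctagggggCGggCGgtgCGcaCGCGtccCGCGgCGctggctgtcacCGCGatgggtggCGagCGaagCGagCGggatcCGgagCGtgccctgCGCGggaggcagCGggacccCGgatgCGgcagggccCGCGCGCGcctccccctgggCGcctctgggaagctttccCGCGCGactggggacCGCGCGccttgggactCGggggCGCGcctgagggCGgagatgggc
Cdkn2a, p16INK4a start: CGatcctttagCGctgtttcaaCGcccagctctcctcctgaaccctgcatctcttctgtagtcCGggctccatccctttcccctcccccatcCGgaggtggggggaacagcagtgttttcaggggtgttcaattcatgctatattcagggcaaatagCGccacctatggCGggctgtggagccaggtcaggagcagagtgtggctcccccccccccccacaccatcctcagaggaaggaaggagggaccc
Cdkn1a, first start: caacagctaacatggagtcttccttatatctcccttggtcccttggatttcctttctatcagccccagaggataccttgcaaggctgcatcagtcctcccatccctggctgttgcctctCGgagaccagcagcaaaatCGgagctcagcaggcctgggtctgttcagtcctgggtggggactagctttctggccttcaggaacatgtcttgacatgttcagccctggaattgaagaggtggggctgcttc
Cdkn1a, next start: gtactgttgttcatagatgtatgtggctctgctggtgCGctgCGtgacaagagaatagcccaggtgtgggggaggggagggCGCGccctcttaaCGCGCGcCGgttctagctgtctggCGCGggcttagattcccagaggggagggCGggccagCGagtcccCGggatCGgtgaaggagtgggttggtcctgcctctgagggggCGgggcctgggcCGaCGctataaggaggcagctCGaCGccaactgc

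The upstream windows differed widely in CpG. The p19ARF window held 38 CpG dinucleotides and the p16INK4a window 7. The first Cdkn1a window held 2 and the next one 19. Over 22350 protein-coding genes, the 250 bases before the gene start held a median of 8 CpG dinucleotides, with quartiles of 3 and 18, and 92.5% of them held at least 1. The p19ARF start was thus CpG-dense and the first Cdkn1a start CpG-poor among genes in general.

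The other starts were compared within 500 bases on either side. The p19ARF start of Cdkn2a had 67.0% G and C, and its ratio of observed to expected CpG was 0.981. Cdkn1b had 63.5% and 0.905, and Cdkn1c had 69.3% and 0.882. These 3 starts were the most CpG-rich of the gene starts. Cdkn2b had 58.3% and 0.742, Cdkn2c 57.0% and 0.725, and Cdkn2d 63.3% and 0.658. The first start of Cdkn1a stood apart at 47.4% and 0.126. The medians over protein-coding genes were 54.7% and 0.549.

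Of the 7 gene starts, 6, all but the Cdkn1a start, lay in CpG-island-like sequence, defined as a window of 500 bases in which G and C reach 55% and the CpG ratio reaches 0.65. Of protein-coding genes, 49.1% had such a start. The next start of Cdkn1a, at 29230717, also lay in such sequence, with a ratio of 0.630 over its own 1001 bases. The p16INK4a start did not, at 52.5% G and C and a ratio of 0.537.

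**Figure D1:**
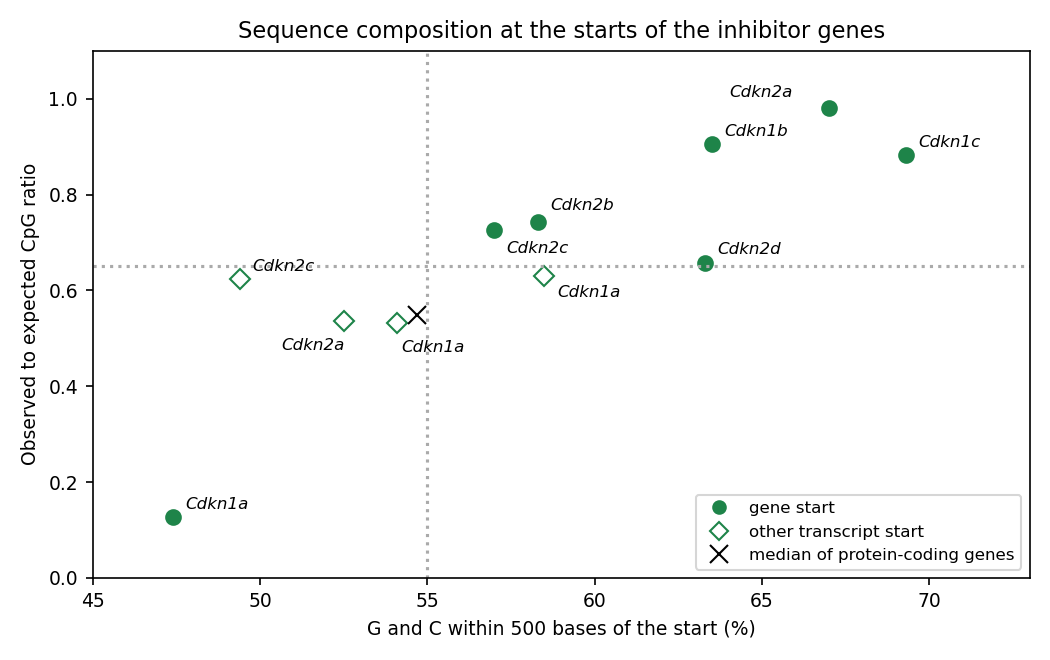
Percentage of G and C (x axis) and observed to expected CpG ratio (y axis) within 500 bases of annotated starts of the 7 inhibitor genes. Filled circles are gene starts, open diamonds other transcript starts, the cross is the median of protein-coding genes and dotted lines mark 55% and 0.65. Another Cdkn2a start very close to the first is left out. Gene starts other than that of Cdkn1a, at a ratio of 0.126, lie between 0.658 and 0.981.

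In the control list, 0 of the 7 inhibitor genes had a peak, against 3.16% of all 37252 genes and 3.81% of protein-coding genes. In the EZHIP list, 0 of 7 had a peak, against 1.12% of all genes and 1.32% of protein-coding genes. In the K27M list, 0 of 7 had a peak, against 1.09% and 1.21%. Among protein-coding genes with a start in CpG-island-like sequence, 5.75% had a peak in the control, 1.86% in the EZHIP and 1.66% in the K27M list. A single inhibitor gene amounts to 14.3% of the 7, more than each of these shares, so a count of 0 does not set the inhibitors apart from other genes. The lists covered 0 bases of the gene bodies and start windows of all 7 genes.

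The absence held at every annotated start. Cdkn2a has 3 annotated transcript starts, Cdkn1a has 3 and Cdkn2c has 2, and the closest peak to any of these starts was 306 kb away. With the p16INK4a start, the nearest control peak was 427305 bases away, compared with 414844 bases from the p19ARF start.

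The distance to the nearest peak is the value that the lists give for every gene. In the control list it ran from 42.9 kb for Cdkn2d to 10856 kb for Cdkn1c, with a median of 415 kb. The median over 22350 protein-coding genes was 914 kb, with quartiles of 300 and 2519 kb, and 2 of the 7 inhibitors, Cdkn1b and Cdkn1c, lay farther than that median. In the EZHIP list the distances ran from 309 to 11947 kb with a median of 7763 kb, against 3249 kb over protein-coding genes, and in the K27M list from 308 to 11946 kb with a median of 7764 kb, against 3512 kb. Distances in the EZHIP and K27M lists were longer than in the control for all 7 genes, and these lists hold fewer peaks. With only the 286 widest peaks of each list kept, the control median became 7762 kb, beside 7763 and 7764 kb. The control distances of Cdkn2a, Cdkn2b, Cdkn1a and Cdkn1b then became 10375, 10359, 1455 and 7762 kb, and those of Cdkn2c and Cdkn2d stayed at 306 and 42.9 kb.

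**Figure D2:**
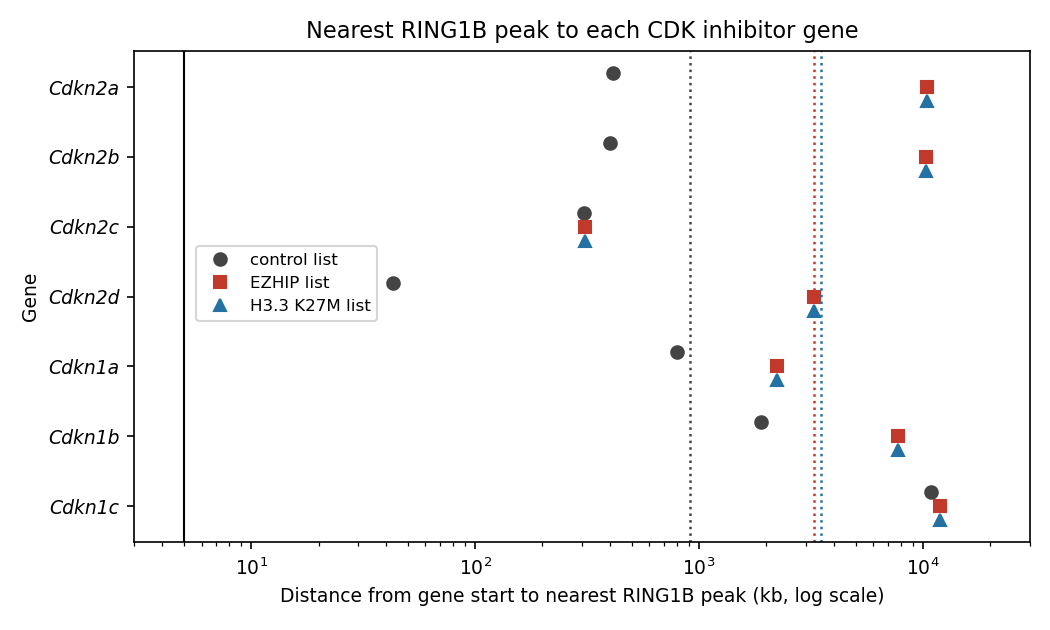
Distance from the start of each inhibitor gene to the nearest RING1B peak in kb (x axis, log scale), with 1 point per gene and list. The solid line marks the 5 kb window and the dotted lines the median of protein-coding genes in each list. All 21 points lie to the right of the window, and the closest, Cdkn2d in the control list, lies at 42.9 kb.

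At the Ink4a/Arf and Ink4b locus, the nearest control peak to Cdkn2a and Cdkn2b was the same one, at chr4:89355401-89357599. It was 2199 bases wide and lay upstream, 415 kb from the Cdkn2a start and 398 kb from the Cdkn2b start. The closest protein-coding gene start to it, 9.27 kb away, was that of Dmrta1, a DMRT family gene. Neither the EZHIP nor the K27M list had a peak there. In those lists the nearest peak to both genes lay over Foxd3, a forkhead transcription factor gene of the neural crest, at 10378 kb from Cdkn2a in the EZHIP and 10376 kb in the K27M list. In the control list, 31.1% of protein-coding genes lay nearer to a peak than Cdkn2a did, and in the EZHIP and K27M lists 80.0% and 78.3% did. The stretch without a peak around these genes was 7170001 bases long in the control list, 52958401 in the EZHIP list and 52955601 in the K27M list.

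Cdkn2c was the only one of the 7 genes with a peak within 1 Mb in all 3 lists. These peaks lay at Dmrta2, another DMRT family gene. The control peak, chr4:109645801-109663799, spanned 17999 bases and held the Dmrta2 start. The K27M peak spanned 11399 bases and held that start as well, and the EZHIP peak spanned 1199 bases and lay 1.06 kb from it. The distances to the Cdkn2c start were 306 kb in the control, 309 kb in the EZHIP and 308 kb in the K27M list, so the position of the nearest peak hardly differed between lists while its width did.

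Cdkn2d had the closest peak of the 7 genes. It was a control peak of 10199 bases at chr9:21042601-21052799, 42.9 kb downstream of the Cdkn2d start. It covered the start of Keap1, which encodes the adaptor that marks NRF2 for degradation, and 5444 bases in the window of S1pr5, a sphingosine phosphate receptor gene. In the control list, 6.50% of protein-coding genes lay nearer to a peak. No EZHIP or K27M peak overlapped it. In both of those lists the nearest peak was at 3251 kb, at chr9:24346201-24346599, and was 399 bases wide. The closest protein-coding start to it, 38.6 kb away, was that of Dpy19l1.

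Sequence around Cdkn2d is largely not unique in mm9. Of 200 words of 32 bases taken every 50 bases over its 10001-base window, 137 (68.5%) occurred more than once on the assembled chromosomes. In the windows of the other 6 genes the share was from 0.990% to 8.85%. For 113 of the Cdkn2d words, the only other copy lay at chr9:123834629-123840762, where the protein-coding gene Gm4694 (ENSMUSG00000079228.3, chr9:123836860-123839608, plus strand) is annotated. Gm4694 also had no peak by the same rule, with its nearest peaks 247 kb away in the control, 250 kb in the EZHIP and 249 kb in the K27M list. Reads of sequence that both copies share cannot be assigned to one of them, so the value of Cdkn2d is uncertain, and the part of the repeated sequence in it was not tested.

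The CIP genes lay farther from control peaks, at a median of 1882 kb against 352 kb for the INK4 genes. The medians were 7763 against 6806 kb in the EZHIP list and 7764 against 6805 kb in the K27M list, and with only the 286 widest control peaks 7762 against 5332 kb. These are medians of 3 CIP and 4 INK4 genes, and Cdkn2a and Cdkn2b share a nearest peak. In the EZHIP and K27M lists and with the 286 widest control peaks, they lay farther away than Cdkn1a and Cdkn1b. Cdkn1a had its nearest control peak 796 kb downstream, a peak of 2599 bases whose closest protein-coding start, 80.4 kb away, was that of Mdga1. Its nearest peaks in the EZHIP and K27M lists, at 2237 and 2238 kb, lay at Nkx2-5, a heart transcription factor gene. They spanned 11199 bases (EZHIP) and 15599 bases (K27M) and overlapped each other and a control peak.

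Cdkn1b had no peak within 1 Mb in any list. Its nearest control peak, at 1882 kb, spanned 4599 bases over the starts of the histone genes H2afj and Hist4h4. In the EZHIP and K27M lists the nearest peak, at 7763 and 7764 kb, was the one beside Ccnd2, the cyclin D2 gene described below with the other pathway genes. Cdkn1c was the farthest from a peak in each list, at 10856 kb in the control, 11947 kb in the EZHIP and 11946 kb in the K27M list. With only peaks of at least 1000 bases, Cdkn1b was the farthest in the K27M list, at 14251 kb. The control peak nearest to Cdkn1c was beside Nkx1-2, and those of the other lists covered the start of Hmx2. The K27M peak also covered the start of Hmx3, and all of these are homeobox genes. In the control list, 96.0% of protein-coding genes were nearer to a peak than Cdkn1c. No list had a peak between Cdkn1c and the end of chromosome 7, 1.88 Mb away.

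**Figure D3:**
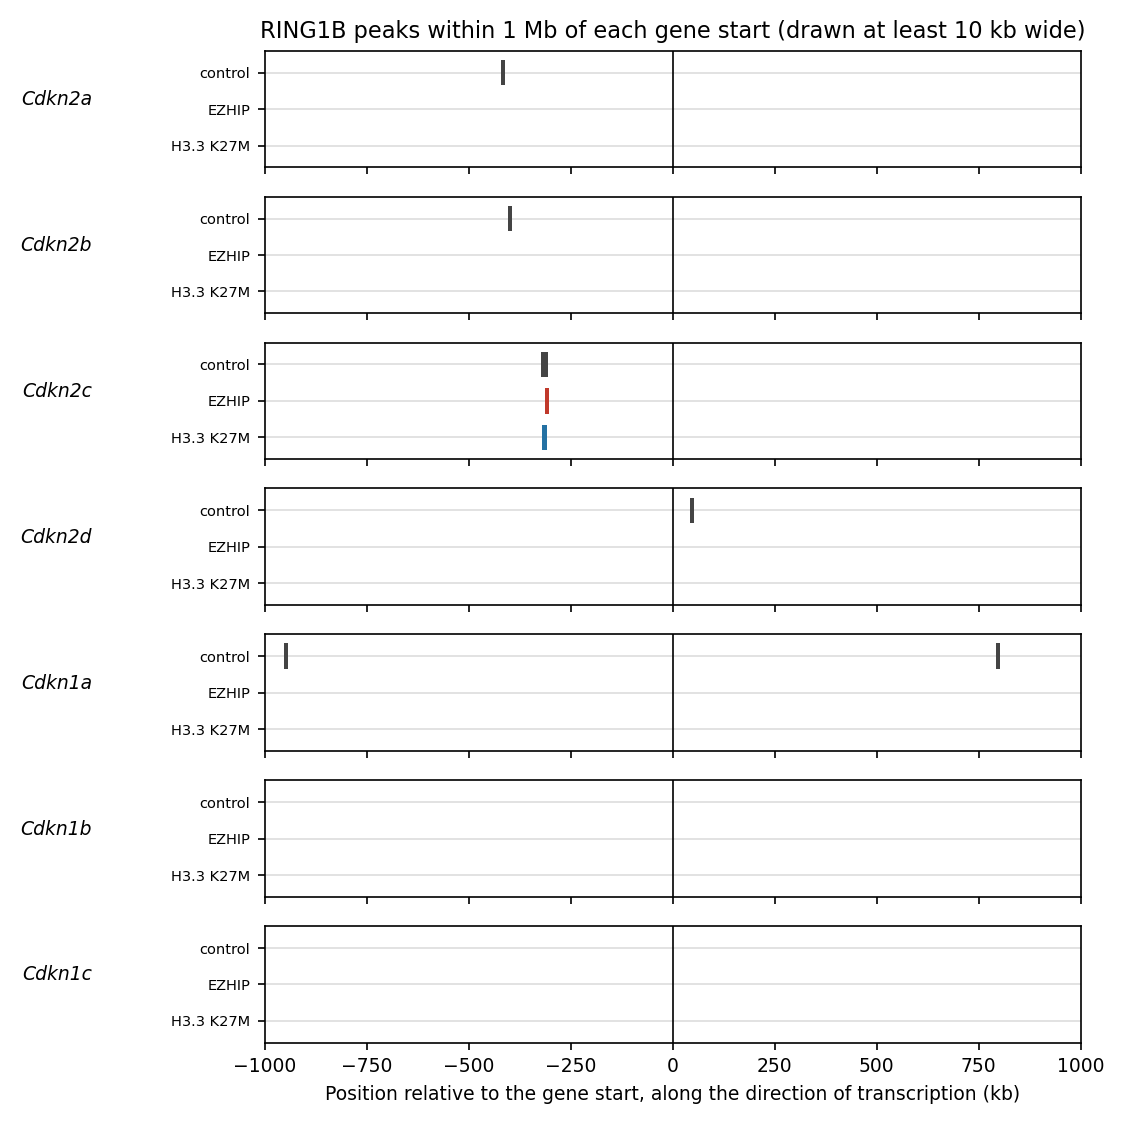
RING1B peaks within 1 Mb of the start of each inhibitor gene, with position in kb along the direction of transcription on the x axis and 1 row per list. Each bar is a peak, drawn at least 10 kb wide so that it can be seen, and the vertical line is the gene start. Peaks in the EZHIP and K27M lists appear near Cdkn2c and near none of the other 6 genes.

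The 7 genes had 6 different nearest control peaks, since Cdkn2a and Cdkn2b share one. Of these 6 peaks, 5 had no overlapping peak in the EZHIP or K27M list and 1, at Dmrta2, had one in both. Over all 821 control peaks, 63.8% had no overlapping peak in either list. Of 40 other protein-coding genes that start within 200000 bases of an inhibitor gene, 2 had a control peak (5.00%), against 3.81% of protein-coding genes, and 0 had an EZHIP or K27M peak, against 1.32% and 1.21%. Both, Keap1 and S1pr5, were among the 13 near Cdkn2d.

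Other genes of the pathway were examined by the same rule, in lists of few genes chosen with earlier results of these data known. The kinases, cyclins, retinoblastoma proteins and E2F factors on which the inhibitors act made up a list of 24 genes. Of these, 3 had a peak in the control (12.5%), the same 3 in the EZHIP list (12.5%) and 1 in the K27M list (4.17%), against 3.16%, 1.12% and 1.09% of all genes. The 3 genes were Cdk4, Cdk6 and Ccnd2, which encode both kinases bound by INK4 proteins and a D-type cyclin that activates them. None of the retinoblastoma genes Rb1, Rbl1 and Rbl2 or of the E2F genes had a peak in any list. Among the widest 50% of each list, the EZHIP count became 1 and the K27M count 0. Cdk4 had no EZHIP peak of at least 1000 bases, and Ccnd2 had none in the EZHIP list with a window of 1000 bases, the gene body alone or the start alone.

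Cdk6 had a control peak of 3999 bases at chr5:3340601-3344599 over its start and an EZHIP peak of 3199 bases at chr5:3341401-3344599. The K27M list had no peak there. Cdk4 had a control peak of 10799 bases at chr10:126493001-126503799, which also held the start of March9, and an EZHIP peak of 599 bases at chr10:126500001-126500599 that reached the Cdk4 start at 126500590 with its last bases. Ccnd2 had a control peak of 9599 bases at chr6:127098601-127108199 over its start. Its EZHIP peak of 1999 bases and its K27M peak of 599 bases lay inside that control peak, at 3935 and 4735 bases upstream of the start. At all 3 genes the control peak was the widest.

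In the p53 arm, which p19ARF acts on and p21CIP1 lies downstream of, 1 of 12 genes had a peak (8.33%), and it had one in all 3 lists, against 3.16%, 1.12% and 1.09% of all genes. A single gene makes up 8.33% of this list, so the count does not set the list apart. The gene was Trp73, a p53 family member, with a control peak of 4599 bases over its start at chr4:153512401-153516999, which also held the start of Wdr8. The K27M peak spanned 1799 bases and included the Trp73 start, and the EZHIP peak of 999 bases lay 684 bases from it, nearer to the start of Wdr8. The control peak was not among the 286 widest peaks of its list, and the EZHIP and K27M peaks were not among the widest 50% of theirs. Trp53 and its regulators Mdm2 and Mdm4 had no peak in any list.

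Among 20 genes known to regulate the Ink4a/Arf locus, 3 had a peak in the control (15.0%), 2 in the EZHIP (10.0%) and 0 in the K27M list, against 3.16%, 1.12% and 1.09% of all genes. With a window of 50000 bases the control count became 6, and with the gene start inside the peak the EZHIP count became 0. Bmi1, whose product is a PRC1 subunit and represses Ink4a/Arf, had a control peak of 8599 bases at chr2:18593401-18601999, which also held the start of Commd3, and no peak in the other lists. Cbx8, for another PRC1 subunit, had a control peak of 18599 bases over its start and an EZHIP peak of 14999 bases that began 318 bases upstream of the start. Tbx2, a T-box repressor of p19ARF, had a control peak of 7799 bases over its start and an EZHIP peak of 2999 bases lying 948 bases into the gene. The genes of the PRC2 subunits EZH2, EED and SUZ12 and of RING1B itself, Rnf2, had no peak.

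**Figure D4:**
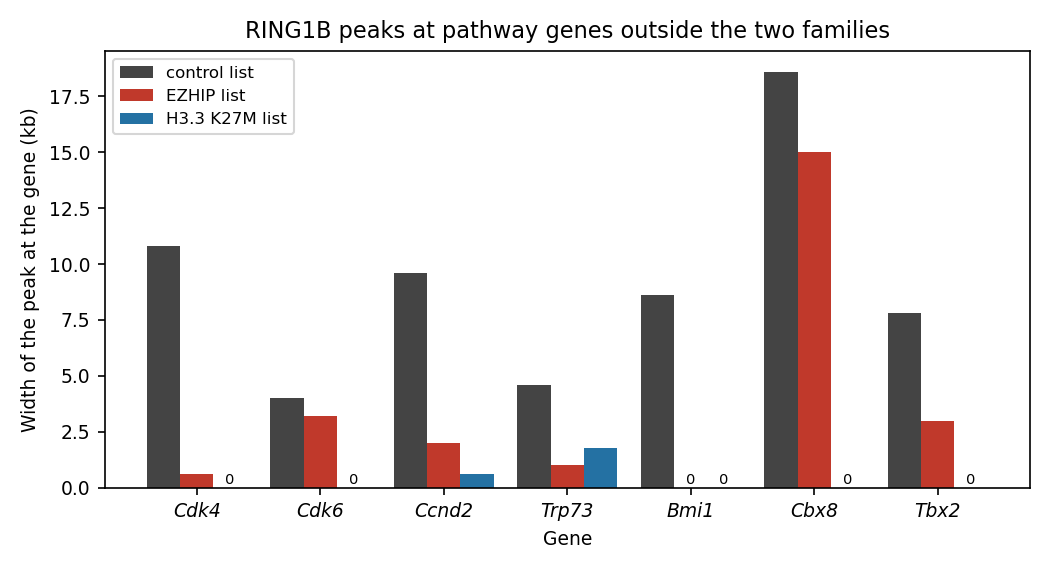
Width in kb (y axis) of the RING1B peak at 7 genes of the pathway lists, with 1 bar per list and 0 where a list has no peak. The control bar is the tallest at each gene, at 10799 bases for Cdk4 and 18599 bases for Cbx8, and K27M bars appear at Ccnd2 and Trp73.

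Cdkn1c lies in an imprinted domain of distal chromosome 7 in which Polycomb takes part in allelic silencing in the placenta. Of 20 named genes of this domain and its neighbour, 19 were found in the annotation, all but Kcnq1ot1. None of the 19 had a peak in any list, against 3.16%, 1.12% and 1.09% of all genes, so the count does not set them apart. Among the 19 were Kcnq1, Phlda2, Slc22a18, Ascl2, Igf2 and H19. The GATA transcription factors, another small family of Polycomb-linked genes, were counted by the same rule. Of 6 GATA genes, 4 (66.7%) had a control peak, 2 (33.3%) an EZHIP and 2 (33.3%) a K27M peak, against 3.16%, 1.12% and 1.09% of all genes. Gata4 had a peak in all 3 lists, Gata6 in the control and EZHIP lists, Gata3 in the control and K27M lists and Gata2 in the control list. The inhibitors had 0 of 7 in each list. With the gene start inside the peak, 3 GATA genes had a control peak and 0 an EZHIP or K27M peak, as for the inhibitors in those 2 lists. With only peaks of at least 1000 bases the EZHIP count was 1, since the Gata6 peak spans 399 bases. These are counts over few genes in single libraries, and the difference was not tested.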

How the data were processed

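RING1B ChIP-Seq peak lists of 3 MEF libraries were analysed, grouped by the cell type in the labels. Per the methods of the study and the labels, the authors aligned reads to mm9 and a spike-in genome with Bowtie 1.0.0 at its defaults, and broad peaks were called per library with MOSAiCS-HMM at a stated minimum size of 1000 bases. Each deposited list holds peak positions (chromosome, start, end) and no other value. Bowtie 1 at its defaults also reports reads that match several places. All 1418 starts lay on a grid of 200 bases. Positions in the text are 1-based and widths count both ends.

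Genes came from GENCODE vM1 and sequence from NCBIM37. Overlaps, distances, base composition and repeated words (32 bases, every 50 bases, either strand) were computed in Python 3.11.15 with numpy 2.4.6 and numba 0.67.0 and drawn with matplotlib 3.10.9, and the code was tested on simulated data. CpG-island-like windows moved by 100 bases.

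The members, gene lists and alternatives were chosen with earlier results of these data known. Genes named were the 7 inhibitors, every listed gene with a peak, and the protein-coding start closest to each nearest peak. S1pr5, Gm4694 and genes without a peak were named after their values were seen. March9, Commd3 and Wdr8, which also start inside peaks of listed genes, were named outside this rule. The planned search for genes of like pattern needs a member with a peak and was not made. With 1 library per group no test was made. Alternatives were the window, the part of the gene, transcript starts, peak width, equal numbers of peaks, a larger overlap, merging of peaks and protein-coding genes only. Beside the GATA genes, 1 other planned gene family is not reported here.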

Additional observations from a re-analysis of the deposited data

How the results depend on the processing

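The count of inhibitor genes with a peak was 0 in each list as reported and stayed at 0 in 35 of 36 recomputed counts. The exception was the control list with a window of 50000 bases, which gave 1 gene, Cdkn2d. Settings that narrow the window, drop peaks or ask for a larger overlap cannot raise a count of 0. Only wider windows, every transcript start, merging of peaks and the copy Gm4694 could have changed it. Using the copy Gm4694 in place of Cdkn2d, and repeating the alternatives for the 3 pathway lists and the GATA genes, were chosen after the data were seen. The 7 distances were recomputed under 4 alternatives in each list. Of these 84 distances 79 stayed within 1.5 times and 5 became longer, 4 of them in the control list with only the 286 widest peaks of each list kept, where the control median became 7762 kb in place of 415 kb. This setting removes control peaks by construction. The fifth was Cdkn1b in the K27M list, at 14251 kb with peaks of at least 1000 bases.

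The share of all genes with a peak moved by over 1.5 times under these settings. A window of 50000 bases gave 6.58% in the control, 2.34% in the EZHIP and 2.17% in the K27M list. The widest 50% of each list gave 1.86%, 0.682% and 0.679%. A gene start inside the peak gave 0.518% for EZHIP and 0.650% for K27M, and equal numbers of peaks gave 1.43% for the control.

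Of 132 recomputed counts of pathway and GATA genes, 106 stayed within 1.5 times, 3 rose and 23 fell. The GATA count fell from 2 to 1 in both the EZHIP and K27M lists with a window of 1000 bases, with the gene body alone and among the widest 50%, and stayed at 3 or 4 in the control list under every alternative run. The K27M peak at Ccnd2 was lost with peaks of at least 1000 bases, with a window of 1000 bases, and when the gene body alone, the start alone or the widest 50% of peaks counted. The EZHIP peak at Trp73 was lost with peaks of at least 1000 bases, with the gene body alone, with the start alone and among the widest 50%. Trp73 also lost its control peak with equal numbers of peaks and its K27M peak among the widest 50%. Cbx8 gained a K27M peak with windows of 10000 bases or more. No paired analysis was possible because each group holds 1 library. Depth is unknown, so reads under the caller's threshold at an inhibitor gene would not show.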
